A study of Saccharomyces cerevisiae with 6 samples.

Results

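The 3′ segment of the 18S coding region of the yeast ribosomal RNA gene, from its midpoint to its end, comprised 900 of the 6858 positions in the table of Pol I occupancy. The members were the last 900 positions of the region that the table names 18S, positions 1601 to 2500 counted from the first nucleotide of the 35S gene, a rule that uses position alone. They encode nucleotides 901 to 1800 of mature 18S and lie on the minus strand of the *S. cerevisiae* genome (assembly R64) at chrXII:465070-465969, inside RDN18-2, with the second copy, in RDN18-1, at chrXII:455933-456832. The 2 copies differ at 0 bases, so that each value is the sum over both copies.

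Native elongating transcript sequencing (NET-seq) reads the 3′ ends of RNA that is still held by a polymerase. Each read is therefore taken to mark the last nucleotide that a polymerase had added. The polymerase was immunoprecipitated by the HA-tagged Rpa135, its second-largest subunit, from cells grown at 30 °C to an OD600 of 0.3. The design compared 3 libraries of WT, a tagged strain with an intact *SPT4* gene, with 3 libraries of *spt4△*, which carries *spt4△::HIS3*. Both strains carried *can1-100*, *ade2-1*, *his3-11,15*, *trp1-1*, *leu2-3, 112* and *ura3-1*. The tag was *RPA135-(HA)3-(His)7::TRP1mx6* in WT and *RPA135-(HA)3-(his)7::URA3mx6* in *spt4△*. WT also carried *rpa190Δ::HIS3Mx6*, covered by the plasmid pRS315-*RPA190*, whereas *spt4△* had its largest subunit at the chromosome. The loss of Spt4 cannot be told apart from these other differences between the strains.

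Spt4 is a small zinc-binding protein that joins Spt5 to form a conserved elongation factor, which sits over the cleft of the polymerase and, in yeast, acts on Pol I as well as on Pol II. Where a polymerase spends longer on a nucleotide, more of its transcripts end there, so occupancy profiles show slowly and quickly transcribed sites along the gene. The 3′ segment of 18S begins in the central domain, holds the 3′ major domain that folds into the head of the small subunit, and ends with the decoding helix and the short helix that carries the paired dimethyladenosines. Downstream of it lies ITS1, and the nuclease Nob1 makes the mature 3′ end of 18S late in maturation.

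The last 60 nucleotides of 18S (chrXII:465070-465129, minus strand) are shown because they hold both the highest occupancy of the region and the position with the largest rise. The capitals mark position 2482, nucleotide 1782 of 18S, and position 2498, nucleotide 1798.
3′ end of 18S: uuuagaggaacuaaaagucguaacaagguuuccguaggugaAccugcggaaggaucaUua

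Occupancy is given in rpm, reads scaled to a total of 1000000 from the start of the gene to the terminator T1 in each library. WT libraries held 10022841, 5544361 and 8812582 such reads and *spt4△* libraries 482133, 438811 and 307249, a ratio of medians of 20.1. In the 3′ segment of 18S the median position was covered by 623 to 1048.5 reads (WT) or 42.5 to 64 reads (*spt4△*). A single WT read was worth 0.0998 to 0.180 rpm, a single *spt4△* read 2.07 to 3.25 rpm. The limit that a count of 0 allows, 3 reads, was 0.299 to 0.541 rpm for WT but 6.22 to 9.76 rpm for *spt4△*. Of the 900 positions, 898 had a read in at least 1 library and entered the test. Across positions, which are not independent replicates, the libraries of WT ranked the region alike (Spearman rho 0.981 to 0.984, n = 900), those of *spt4△* somewhat less so (0.931 to 0.943), and libraries of different strains least (0.808 to 0.854). The rho values share the depth of each library.

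The 3′ segment of 18S held a larger share of the reads of the gene in *spt4△* than in WT. WT libraries gave 12.7%, 13.5% and 13.2% there, and *spt4△* libraries gave 14.9%, 14.9% and 14.8%. All 3 *spt4△* libraries lay above all 3 WT libraries, and the means were 13.1% ± 0.383 (SD, n = 3) and 14.9% ± 0.0646 (SD, n = 3), a difference of 1.73 percentage points (two-sided exact permutation p = 0.1, the smallest that 3 against 3 libraries allow). The 95% Wilson interval of a single library spanned at most 0.251 points and covers counting error only. The median position moved the same way, with 110 rpm ± 4.50 for WT against 137 rpm ± 3.44 for *spt4△* (SD, n = 3 each). When each library was instead scaled to its median position over the gene, a choice made after seeing the data, the difference shrank to 0.478 points, the libraries overlapped and the exact permutation p was 0.2.

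Within 18S, occupancy was also shifted towards the 3′ segment, compared with the 5′ segment formed by the first 900 positions of 18S. The log2 ratio of reads in the 3′ to the 5′ segment was −0.37, −0.29 and −0.31 in WT and −0.15, −0.21 and −0.22 in *spt4△*. Thus every library held fewer reads in the 3′ segment than in the 5′ segment, and the gap was narrower in each *spt4△* library than in any WT library. The strains differed by 0.13 on the log2 scale (exact permutation p = 0.1, the smallest possible). This ratio does not depend on the scaling of a library.

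At single positions, rises outnumbered falls. With limma on log2(rpm + 1), fitted over all 6848 tested positions of the gene with a Benjamini-Hochberg threshold of 0.05, 331 of 898 positions (36.9%) rose in *spt4△* and 107 (11.9%) fell. Over the whole gene the same call was made at 25.2% of positions in the higher direction and at 21.0% in the lower direction. In the 5′ segment of 18S, 283 of 900 positions rose and 176 fell. The median log2 change was 0.28 in the 3′ segment, 0.13 in the 5′ segment and 0.08 over the gene. The 3 *spt4△* libraries lay wholly above the 3 WT libraries at 402 positions of the 3′ segment and wholly below at 140, and over the gene at 30.7% and 25.9% of the tested positions.

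The called changes were mostly moderate. The median log2 change was 0.75 among the rises and −0.66 among the falls. Of the rises, 81 exceeded 1 on the log2 scale and 4 exceeded 2, and of the falls 21 and 3 did so. The balance of rises and falls is relative to the scale. Scaling every library by its median position over the gene, which moved the median of all positions by −0.13, gave 253 rises and 138 falls, so that rises made up 64.7% of the calls instead of 75.6%. Scaling by the median position of the 3′ segment itself, a shift of −0.31, gave 167 rises and 214 falls, or 43.8% rises, and removes any change common to the whole segment by construction.

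**Figure D1:**
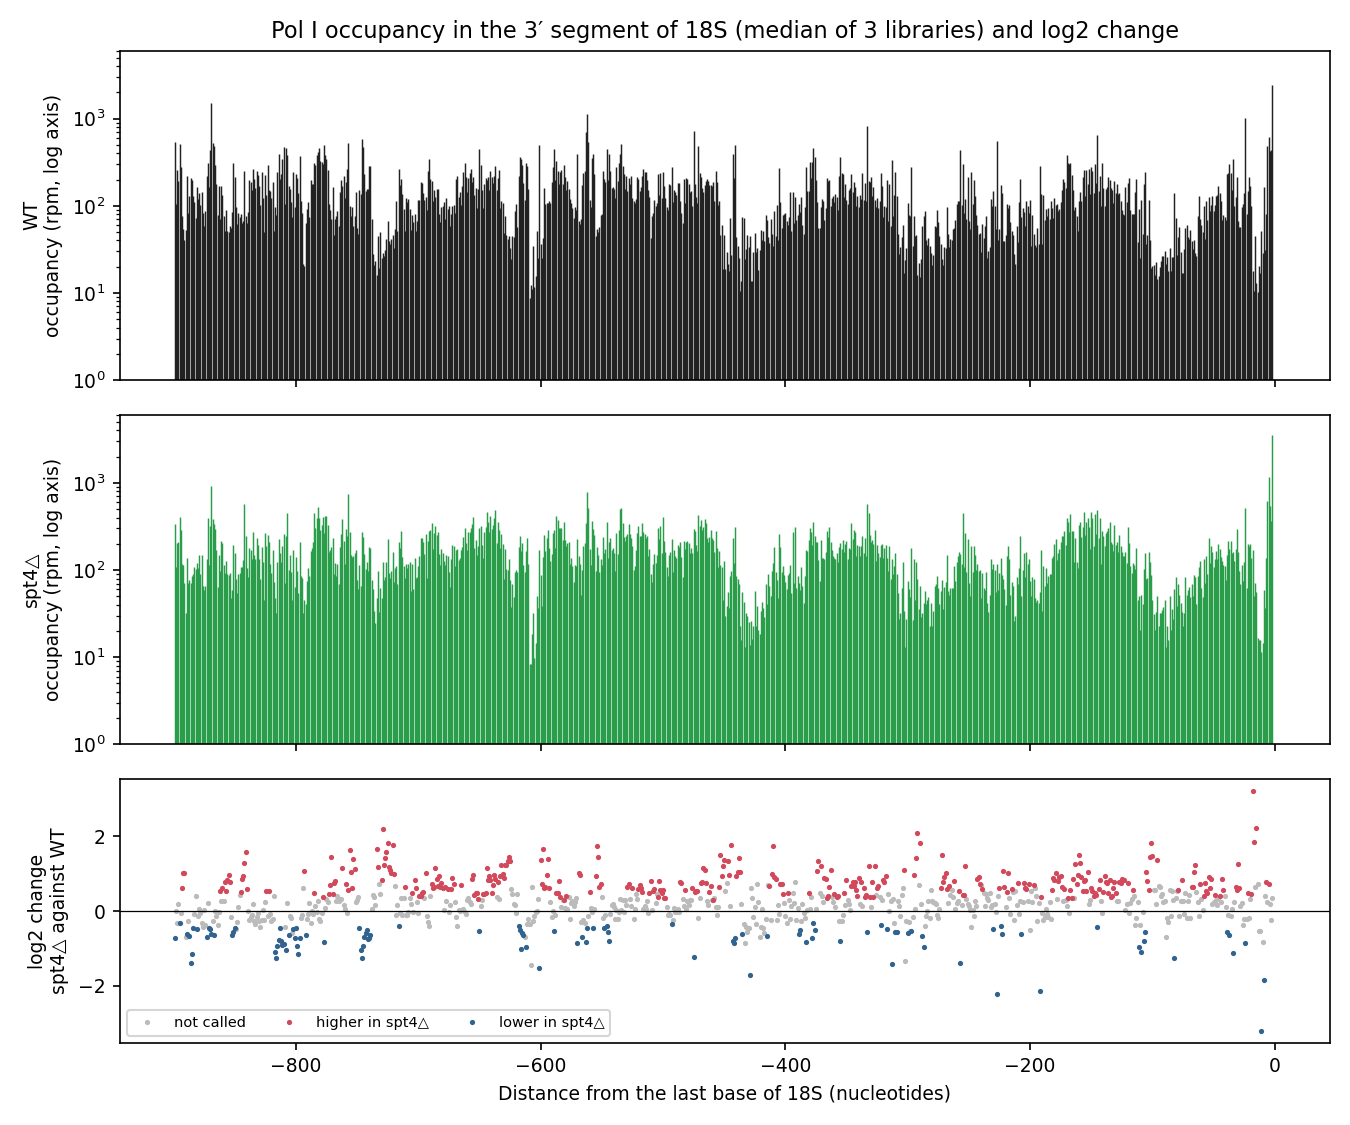
Pol I occupancy (rpm, log axis, median of 3 libraries) in WT and *spt4△*, and the log2 change of each tested position, against the distance from the last base of 18S. Rises (331 positions) are spread along the region, many of them in stretches. Of the 107 falls, 29 lie in the first 100 positions.

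The change was uneven along the region. In 9 consecutive bins of 100 positions, *spt4△* libraries lay wholly above WT in 6 bins, wholly below in 1 and overlapped with WT in 2. The exception was the first bin, positions 1601 to 1700, where the share of gene reads was 1.91%, 1.83% and 1.89% in WT and 1.70%, 1.62% and 1.61% in *spt4△*. Here 18 positions rose and 29 fell.

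The widest gap lay in positions 2301 to 2400, nucleotides 1601 to 1700 of 18S, which encode part of the decoding helix. The share there was 1.37%, 1.5% and 1.38% in WT and 1.89%, 2.01% and 1.87% in *spt4△*, a log2 ratio of 0.44. In that bin 57 positions rose and 6 fell. Positions 1801 to 1900 followed, with means of 1.52% ± 0.135 and 1.90% ± 0.0383 (SD, n = 3 each), 49 rises and 8 falls. The 7 bins without overlap reached an exact permutation p of 0.1 each, or 0.129 adjusted over the 9 bins. Scaled to the median position of the gene, only the first bin and those starting at 1801, 2101 and 2301 kept the strains apart.

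**Figure D2:**
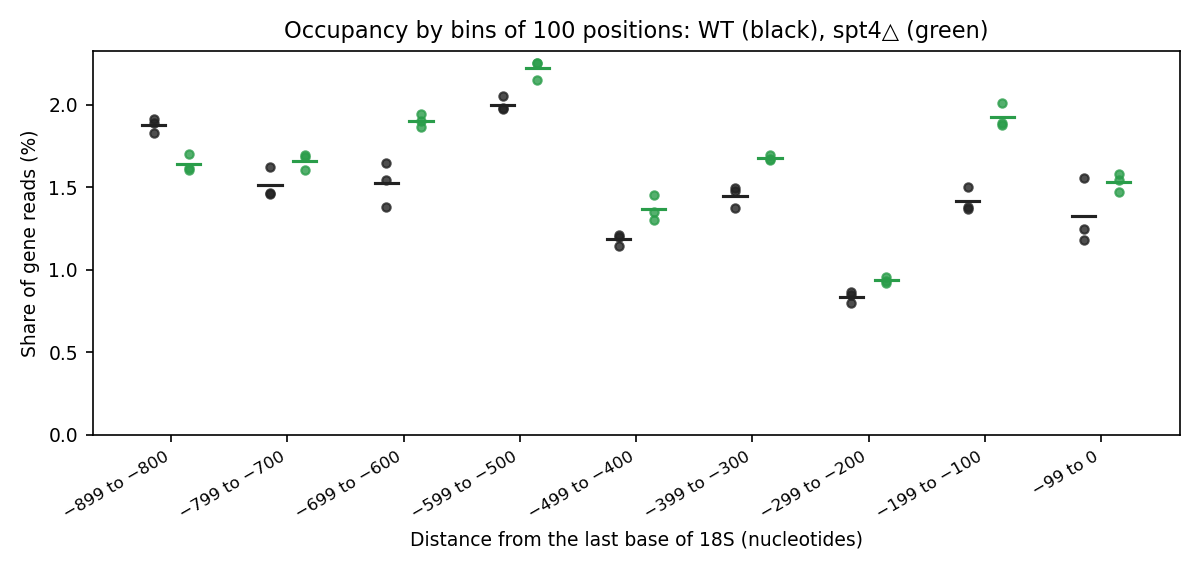
Share of gene reads (%) in consecutive bins of 100 positions, by distance from the last base of 18S, with each library as a point and the mean of 3 as a bar, WT in black and *spt4△* in green. The first bin lies lower in *spt4△* and the bin from −199 to −100 shows the widest rise, while the last bin overlaps through 1 WT library.

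Many rises ran in stretches of neighbouring positions. The 331 rises formed 121 runs, of which 59 were single positions. In 23 runs at least 5 adjacent positions rose, together 164 positions. The 107 falls formed 63 runs, of which 4 were that long and 47 were single positions. Rises were called at 36.9% of tested positions and falls at 11.9%, and more frequent calls form longer runs, so the run lengths cannot be compared directly. The longest runs are shown because their letters are the stretches over which occupancy moved as a block, with the called positions in capitals and 10 bases on each side.
Rise at positions 1770 to 1780: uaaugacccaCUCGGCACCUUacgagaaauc
Rise at positions 1853 to 1863: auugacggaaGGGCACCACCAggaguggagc
Rise at positions 2337 to 2347: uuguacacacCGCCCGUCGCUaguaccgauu
Rise at positions 2360 to 2370: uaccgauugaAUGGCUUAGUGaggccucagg
Fall at positions 1752 to 1761: gaucggguggUGUUUUUUUAaugacccacu
Fall at positions 1683 to 1690: aacgaaaguuAGGGGAUCgaagaugauc

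The fall at 1752 to 1761, chrXII:465809-465818, lies on the longest tract of U shown here and summed to 3040, 2445 and 2662 rpm in WT and 1541, 1438 and 1598 rpm in *spt4△*. Shortly downstream, the rise at 1770 to 1780, chrXII:465790-465800, summed to 375, 466 and 425 rpm in WT and 1209, 1285 and 1077 rpm in *spt4△*. In WT a dense block thus stood close to a sparse one, and in every *spt4△* library the levels of both were closer to each other. The rise at 2337 to 2347, chrXII:465223-465233, a C-rich stretch of the decoding helix that is conserved among small-subunit rRNAs, summed to 1630, 1886 and 1548 rpm in WT and 3155, 3535 and 2916 rpm in *spt4△*. These runs were picked by length from the calls, so that their sums are a description.

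The highest positions of WT were mostly lower in *spt4△*. The 5 highest by median in WT were 2498, 1631, 1938, 2476 and 2167, whereas *spt4△* had 2498, 2495, 1631, 1938 and 1743. Positions 2495 and 1743, on the list of *spt4△* only, were higher in *spt4△*. Each list was picked by the values of its own strain, which favours such a pattern, so the comparisons at these positions are a description. Their surroundings are given because each is a candidate pause site, with the last RNA base in capitals after 30 upstream bases.
Position 1631: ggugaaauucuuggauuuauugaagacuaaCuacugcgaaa
Position 1938: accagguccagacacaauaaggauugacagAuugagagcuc
Position 2167: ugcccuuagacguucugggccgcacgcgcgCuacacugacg
Position 2476: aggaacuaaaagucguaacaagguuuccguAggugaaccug
Position 1743: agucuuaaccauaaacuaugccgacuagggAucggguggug

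Position 1631, at chrXII:465939, had 1557, 1434 and 1523 rpm in WT and 1174, 857 and 931 rpm in *spt4△*, a log2 change of −0.62 ± 0.15 (SE, limma adjusted p = 0.00595). Position 1938 had 1188, 1141 and 953 rpm in WT and 784, 759 and 856 rpm in *spt4△* (log2 change −0.45 ± 0.13, SE, limma adjusted p = 0.0163). At both sites every *spt4△* library was below every WT library. At 1938 the call was lost without WT replicate 1, WT replicate 2 or *spt4△* replicate 2 (adjusted p up to 0.0693).

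Position 2476, close to the 3′ end, had 1048, 1002 and 909 rpm in WT and 606, 513 and 517 rpm in *spt4△* (log2 change −0.86 ± 0.12, SE, limma adjusted p = 0.000226). Position 2167 had 809, 816 and 816 rpm in WT and 475, 631 and 573 rpm in *spt4△* (log2 change −0.55 ± 0.13, SE, limma adjusted p = 0.00454). The next base, position 2168, went the other way, from 185, 193 and 202 rpm to 460, 451 and 430 rpm (log2 change 1.21 ± 0.10, SE, limma adjusted p = 7.61e-06), and was named after its values were seen. Thus the peak at these adjacent bases, a C followed by a U, was sharp in WT and shared between both bases in *spt4△*. Position 1743 was higher in *spt4△*, with 376, 520 and 562 rpm in WT against 579, 830 and 742 rpm (log2 change 0.56 ± 0.17, SE, limma adjusted p = 0.0195), and the call was lost without WT replicate 1 or *spt4△* replicate 2 (adjusted p up to 0.0989).

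Pauses were counted as positions with at least 4 times the median of the 100 positions on each side. WT libraries had 36, 36 and 29 pauses and *spt4△* libraries 29, 23 and 19, which touch at 29 (exact permutation p = 0.2). With WT reads thinned to the depth of *spt4△* the means were 32.3 ± 2.52 and 23.7 ± 5.03 (SD, n = 3 each) and the libraries did not overlap. By the same rule on all 3 libraries of a strain, 24 positions were pauses in WT and 12 in *spt4△*, and 10 of them were the same, 41.7% of those of WT and 83.3% of those of *spt4△*. Of the 26 positions that were a pause in either strain, 4 rose and 14 fell in the limma test, which is a description, since the rule and the test read the same values. The rule is easier to meet near the 3′ end, since the window then reaches into ITS1, where occupancy is low. At 2498 the local median had dropped to 27.9 rpm for WT and 38.8 rpm for *spt4△*, against 120 and 138 rpm over the segment. The last 100 positions held 15 of the pauses of WT and 8 of those of *spt4△*. Before them lay 9 pauses of WT and 4 of *spt4△*, and only 1631 and 2167 were shared there. The count on all 3 libraries was not repeated with thinned WT reads, and it depends on the threshold. At 1938 and 2355 *spt4△* fell short in replicate 1 alone, at 3.96 times the local median each. At 1743 WT fell short in replicate 1 alone, at 3.30 times. The shared pauses at 2494 to 2498 lie in the last 10 positions. With the window kept inside 18S, a choice made after seeing the data, 16 and 10 pauses remained, 8 of them the same.

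Occupancy was spread more evenly in *spt4△*. The 90 highest positions of each library held 31.8%, 32.4% and 30.5% of the reads of the 3′ segment in WT and 28.1%, 27.4% and 27.2% in *spt4△*. All *spt4△* libraries were lower (means 31.6% ± 1.01 and 27.6% ± 0.507, SD, n = 3 each, exact permutation p = 0.1, the smallest possible). The ratio of the 90th to the 10th percentile of occupancy was 7.96 to 9.35 in WT and 7.15 to 7.71 in *spt4△*. Thinning WT to the depth of *spt4△* left the means at 31.7% and 27.6%.

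The largest falls among well-occupied positions were at 2273, 2308, 2491, 1899 and 2187. They are called positions whose libraries did not overlap and whose mean over both strains was above 105 rpm, the median of the gene, so that the high WT values helped them to pass. In *spt4△* they rest on few reads, 25, 34 and 17 at 2308 and 16, 26 and 19 at 2491.
Position 2273: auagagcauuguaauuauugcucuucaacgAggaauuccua
Position 2308: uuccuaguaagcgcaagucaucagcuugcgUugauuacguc
Position 2491: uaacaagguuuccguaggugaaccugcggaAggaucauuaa
Position 1899: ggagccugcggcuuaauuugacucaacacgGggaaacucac
Position 2187: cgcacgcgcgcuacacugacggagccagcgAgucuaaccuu

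Position 2273, at chrXII:465297, had 461, 548 and 549 rpm in WT and 118, 132 and 84.6 rpm in *spt4△*, 4.65-fold lower by the means (log2 change −2.23 ± 0.16, SE, limma adjusted p = 3.03e-06). In WT it was a pause at 5.26 to 5.93 times the local median, and in *spt4△* it stood at 0.765 to 1.22 times. Position 2308 had 235, 290 and 289 rpm in WT and 51.9, 77.5 and 55.3 rpm in *spt4△* (log2 change −2.14 ± 0.17, SE, limma adjusted p = 5.55e-06). At both positions the highest *spt4△* library lay below the lowest WT library, which the rule for this list required. The values and tests of these falls are therefore a description. Position 2491 had 153, 164 and 230 rpm in WT and 33.2, 59.3 and 61.8 rpm in *spt4△* (log2 change −1.84 ± 0.24). The other members of this group had log2 changes of −1.53 at 1899 and −1.40 at 2187. Except at 2308, where the base is U, the last base of these 5 was A or G. Among all 107 falls of the segment, 47 end in A and 27 in G.

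The largest rises by the same rule were at 1775, 1946, 1744, 1659 and 2340. At 1775, 1946, 1744 and 1659 the WT means were 64.5, 56.2, 93.9 and 75.1 rpm, below the median of the gene. The high *spt4△* values therefore helped these positions to pass. The rule also required that the libraries did not overlap, so the values and tests of these rises are a description.
Position 1775: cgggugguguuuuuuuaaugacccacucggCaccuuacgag
Position 1946: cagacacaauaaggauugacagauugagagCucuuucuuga
Position 1744: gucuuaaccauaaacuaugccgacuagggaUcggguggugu
Position 1659: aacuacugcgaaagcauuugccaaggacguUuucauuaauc
Position 2340: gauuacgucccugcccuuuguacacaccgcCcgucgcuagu

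Position 1775, at chrXII:465795 within the run at 1770 to 1780, had 59.4, 68.2 and 66.0 rpm in WT and 230, 228 and 228 rpm in *spt4△*, 3.54-fold higher (log2 change 1.81 ± 0.13, SE, limma adjusted p = 2.97e-06). Position 1946 had 54.6, 50.3 and 63.7 rpm in WT and 185, 160 and 225 rpm in *spt4△* (log2 change 1.73 ± 0.17, SE, limma adjusted p = 1.95e-05). Position 1744, next to the pause at 1743, had 81.8, 98.5 and 101 rpm in WT and 348, 264 and 270 rpm in *spt4△* (log2 change 1.63 ± 0.15, SE, limma adjusted p = 1.01e-05). All 5 of these positions end in a pyrimidine, C or U. Among all 331 rises of the segment, 75 end in C and 113 in U. Rises were called at 41.2% of the tested positions ending in C and 47.5% of those ending in U. The share over all tested positions of the segment was 36.9%. Positions 1659 and 2340 had log2 changes of 1.59 and 1.49.

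**Figure D3:**
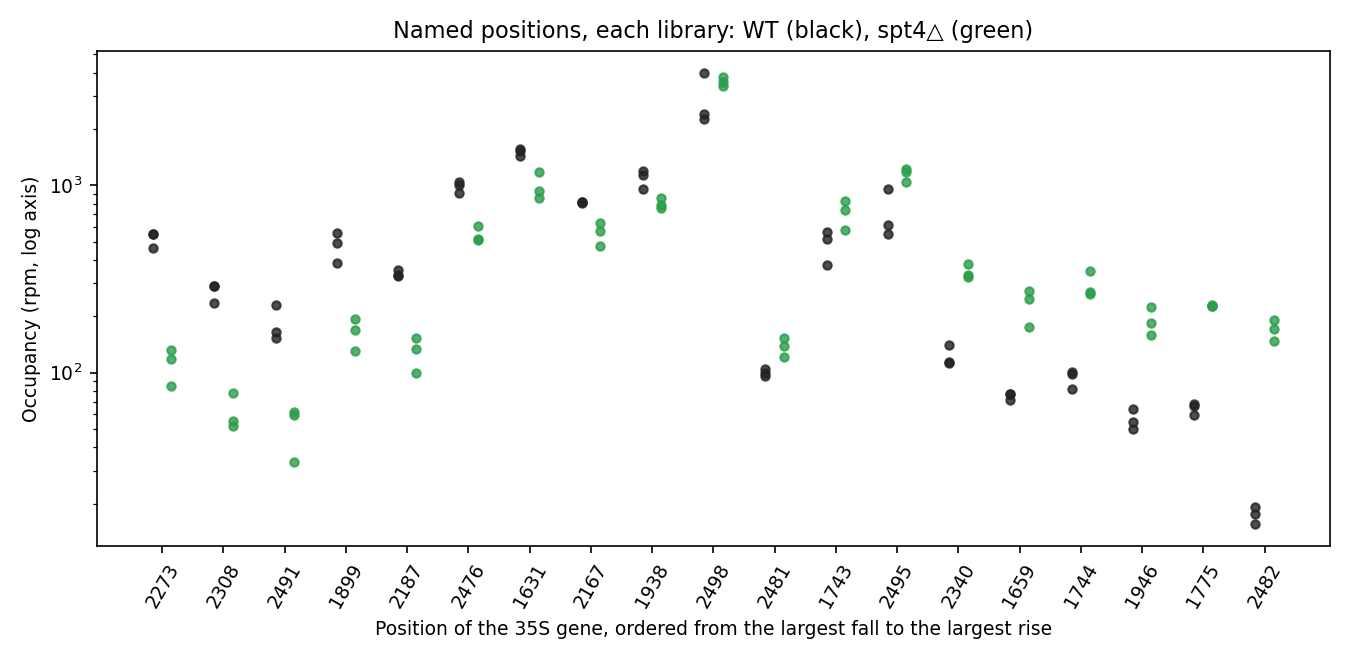
Occupancy (rpm, log axis) of the named positions in each library, WT in black and *spt4△* in green, ordered from the largest fall to the largest rise. The libraries of the strains stand apart at 18 of the 19 positions, and overlap at 2498. The largest falls and rises were picked from positions whose libraries did not overlap, so this count is a description. Over the gene, *spt4△* libraries lay wholly above WT at 30.7% of the tested positions and wholly below at 25.9%.

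The 3′ segment of 18S carries nucleotides that are modified in the mature rRNA, and they are given as landmarks, since the table holds transcript ends and no measure of modification. At the second of the paired dimethyladenosines made by Dim1, nucleotide 1782 (position 2482, chrXII:465088), occupancy was 15.7, 17.7 and 19.2 rpm in WT and 147, 171 and 192 rpm in *spt4△*. This was a rise of 9.72-fold by the means (log2 change 3.20 ± 0.20, SE, limma adjusted p = 1.26e-06), the largest log2 rise called in the 3′ segment of 18S, on 98 to 169 reads in WT and 59 to 75 in *spt4△*. At its partner, nucleotide 1781 (position 2481), the values were 95.6, 104 and 100 rpm in WT and 139, 121 and 153 rpm in *spt4△* (log2 change 0.45 ± 0.14, SE, limma adjusted p = 0.0220). So in WT occupancy dropped between these adjacent A positions, and in *spt4△* it did not.

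At the acetylcytidine made by Kre33 at nucleotide 1280 (position 1980), occupancy rose from 196, 201 and 220 rpm to 348, 273 and 319 rpm (log2 change 0.60 ± 0.12, SE, limma adjusted p = 0.00204). The other acetylcytidine, nucleotide 1773 (position 2473), had 98.9 rpm ± 8.33 in WT and 115 rpm ± 1.28 in *spt4△* (SD, n = 3 each, limma adjusted p = 0.230). At the methylguanosine made by Bud23, nucleotide 1575 (position 2275), the values were 48.9, 54.1 and 65.7 rpm against 93.3, 68.4 and 97.6 rpm (log2 change 0.61 ± 0.20, SE, limma adjusted p = 0.0308). The calls at 2275 and 2481 were each lost without WT replicate 1, WT replicate 2 or *spt4△* replicate 3 (adjusted p up to 0.130 and 0.0834), and also without *spt4△* replicate 1 at 2275 and without WT replicate 3 at 2481. The hypermodified pseudouridine whose base is methylated by Emg1, nucleotide 1191 (position 1891), lay in a trough of both strains, with 7.38, 8.84 and 9.08 rpm in WT and 8.30, 9.12 and 3.25 rpm in *spt4△*, values of at most 4 reads a library in *spt4△*, where a difference was not detectable at this depth.

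At the very 3′ end, occupancy climbed steeply before a gap without reads. Position 2498, chrXII:465072, was the highest of the 3′ segment in every library, with 2269, 3969 and 2415 rpm in WT and 3381, 3813 and 3551 rpm in *spt4△*. The strains overlapped there through WT replicate 2 (log2 change 0.36 ± 0.25, SE, limma adjusted p = 0.268), and the log2 change was 0.61 without that library (adjusted p = 0.0755) and 0.21 without WT replicate 1 (adjusted p = 0.615). WT reads at 2498 were 22739, 22006 and 21282 and so did not follow the library totals. At 1631 the WT reads, 15606, 7951 and 13419, did. Read counts alone do not tell ends of nascent RNA from ends of mature 18S, which was not tested. Position 2495 had 549, 956 and 612 rpm in WT and 1039, 1217 and 1175 rpm in *spt4△* (log2 change 0.74 ± 0.19, SE, limma adjusted p = 0.00797). Positions 2499 and 2500, the last bases of 18S, and 2501, the first base of ITS1, had 0 reads in all 6 libraries, and 2502 had 14.8 rpm ± 1.88 in WT and 18 rpm ± 8.62 in *spt4△* (SD, n = 3 each). No source used here says how the table came to hold 0 at these positions.

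The last 10 positions summed to 4320, 7277 and 4573 rpm in WT and 6162, 6825 and 6555 rpm in *spt4△* (exact permutation p = 0.4). WT replicate 2 alone stood above all *spt4△* libraries, and the last bin overlapped through that library: its difference was 0.202 percentage points with all libraries and 0.316 without WT replicate 2. Without the last 10 positions, that bin held 0.789% ± 0.0397 of gene reads in WT and 0.879% ± 0.0229 in *spt4△* (SD, n = 3 each) with no overlap, and the share of the 3′ segment was 12.6% in WT and 14.2% in *spt4△*. Upstream of this peak lay a trough in which single positions changed strongly. Position 2485 had 11.4, 13.2 and 17.5 rpm in WT and 56.0, 43.3 and 130 rpm in *spt4△*, and position 2489 had 489, 287 and 553 reads in WT and 0, 5 and 5 reads in *spt4△*, or 48.8 to 62.8 rpm against 0 to 16.3 rpm. These were named after their values were seen.

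**Figure D4:**
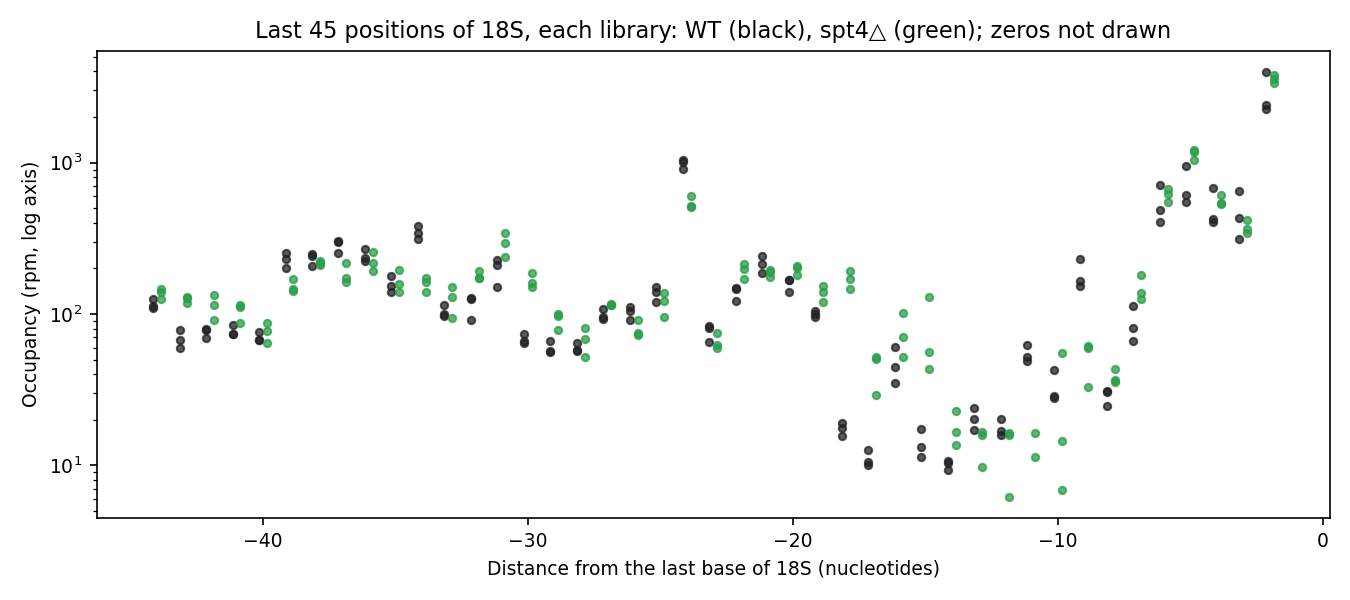
Occupancy (rpm, log axis) of the last 45 positions of 18S in each library, WT in black and *spt4△* in green, with values of 0 not drawn. Both strains peak at −2, where WT had 2269 to 3969 rpm and *spt4△* 3381 to 3813 rpm, and stand apart widely at −18, where WT had 15.7 to 19.2 rpm and *spt4△* 147 to 192 rpm.

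The last base of the RNA differed between the strains. Reads ending in A made up 33.2%, 33.1% and 32.8% of the reads of the 3′ segment in WT and 27.5%, 28.9% and 29.2% in *spt4△*, a difference of −4.52 percentage points. Reads ending in U made up 26.5% ± 0.540 in WT and 29.1% ± 0.505 in *spt4△*, and those ending in C 19.1% ± 0.144 and 20.4% ± 0.408 (SD, n = 3 each). For A, U and C the strains did not overlap (exact permutation p = 0.1 each, 0.133 adjusted over the 4 bases). Reads ending in G overlapped, at 21.5% ± 0.896 and 22.0% ± 0.0827 (SD, n = 3 each, exact permutation p = 0.4).

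The calls at single positions followed the same order. Of 233 tested positions ending in A, 56 rose and 47 fell (24.0% and 20.2%), where the whole gene had 16.7% and 32.2%. For U, 113 of 238 rose and 21 fell (47.5% and 8.82%), against 35.1% and 14.1% over the gene. For C, 75 of 182 rose and 12 fell (41.2% and 6.59%), against 27.3% and 18.4%. For G, 87 of 245 rose and 27 fell (35.5% and 11%), against 21.9% and 18.9%. For each of these 4 bases the 3′ segment had a larger share of rises and a smaller share of falls than the gene. Of the 24 pauses of WT, 12 end in A, which is 26% of the positions, and of the 12 pauses of *spt4△* 4 do.

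**Figure D5:**
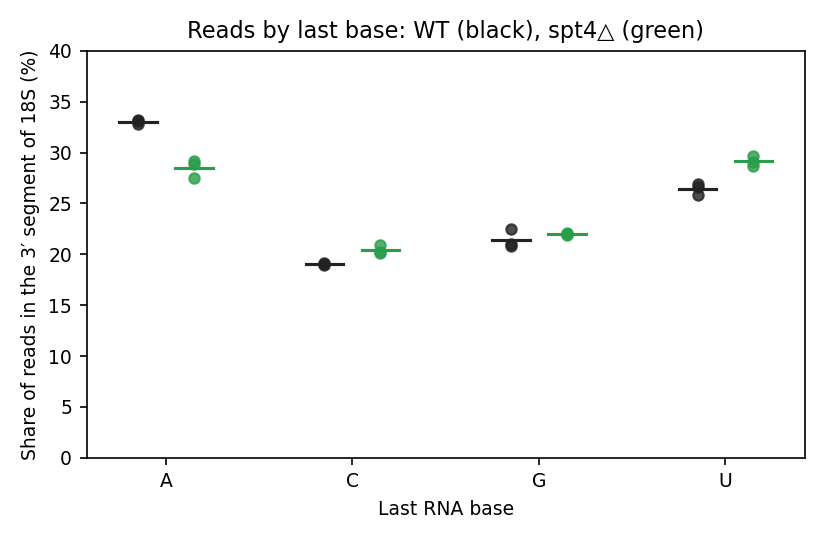
Share of the reads of the 3′ segment of 18S (%) by the last RNA base, with each library as a point and the mean of 3 as a bar, WT in black and *spt4△* in green. A lies lower and U and C higher in all *spt4△* libraries, and G overlaps.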

How the data were processed

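NET-seq of Pol I was compared in 3 WT and 3 *spt4△* libraries, described by the study as biological triplicates. The authors removed duplicate reads by their molecular identifiers, trimmed linkers (cutadapt 1.12), aligned to assembly R64 (STAR 2.7.1a, unspliced), counted read ends per position (bedtools 2.26.0) and summed both gene copies. The deposited values are rpm of the reads up to T1. The authors' columns of means, medians, intervals, ratios and p-values per position were not used. Values are whole multiples of 1 step per library within 0.1 read, apart from 11 of 41148, all in WT, which were rounded.

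Positions were tested with limma 3.58.1 (trend, pseudocount 1 rpm, strain as the only term), over the whole gene and with no filter. Single values per library were compared by two-sided exact permutation tests. Alternatives included edgeR 4.0.16 and DESeq2 1.42.0 on recovered reads, other pseudocounts, scalings, thinned reads, a replicate block and leaving out each library.

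Positions named were the first and the last 10, the 5 highest per strain, the 5 largest rises and falls (called, libraries apart, mean above the median of the gene), those before the linker's letters, and modified nucleotides. Members and lists were chosen with earlier results of these data known.
Sequences come from RefSeq's R64 reference, which matched the base column at every position.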

Additional observations from a re-analysis of the deposited data

How the results depend on the processing

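Rises outnumbered falls in the 3′ segment of 18S under the alternatives tried, apart from scaling to the median position of the segment, which centres its changes by construction and gave 167 rises and 214 falls. The other fits gave 229 to 367 rises and 80 to 138 falls. The edgeR quasi-likelihood test on recovered reads called 351 and 112, TMM factors 295 and 135, DESeq2 294 and 124, and WT thinned to the depth of *spt4△* 280 and 89. Without 1 library the counts were 229 to 341 and 80 to 116. The share of gene reads differed by 1.53 to 1.91 percentage points without 1 library, the log2 ratio of the 3′ to the 5′ segment by 0.10 to 0.14, the 90 highest positions by −4.54 to −3.55 points, and reads ending in A by −4.84 to −4.02, in C by 1.10 to 1.47, in G by 0.208 to 1.03 and in U by 2.36 to 2.90. The number of pauses differed by −12.7 to −7.67. Reads ending in G turned to −0.0292 points when log2(rpm + 1) was summed. The 4-fold rule for pauses gave overlapping libraries, whereas 3-fold (73.3 and 52.3), 6-fold (14 and 7.33) and 50 positions on each side (29.3 and 12.7) did not. By the 4-fold rule the libraries also overlapped without the last 10 positions (27.7 and 18.3). The same held without the last 100 (16.7 and 12) and with the window kept inside 18S (24 and 18), both chosen after seeing the data.

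The replicate numbers gave no clear pairing of the samples. The deviations of same-numbered libraries correlated at 0.07, 0.10 and 0.04, and those of other pairs at −0.14 to 0.05. WT replicates 1 and 2 correlated best with the same-numbered library, but WT replicate 3 with *spt4△* replicate 2 (0.0400 against 0.0369). With the replicate number as a block, limma called 338 rises and 113 falls, of which 321 and 106 were called without it. The mean of the same-number differences was 1.73 points for the share and 0.13 for the ratio of the 3′ to the 5′ segment.

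Of 300 alternative fits of 30 named positions, 278 kept direction and side of the threshold. These fits were the other pseudocounts, edgeR, the replicate block and leaving out each library. They do not include the other scalings, TMM factors, DESeq2 or thinned WT reads, so 278 does not measure robustness to scaling or depth. A call was lost in 14 fits, of 5 positions. It was gained in 2, at 2494 and 2496 without WT replicate 2. Direction turned in 6, none of them called: when 1 library was left out, the log2 change ranged from −0.580 to 0.0446 at 1891, from −0.495 to 0.0279 at 2497 and from −0.158 to 0.0767 at 2392. The *spt4△* libraries limit low positions, since a value of 0 there allows up to 6.22 to 9.76 rpm.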

Other observations

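Bases beside the last one also differed among the called positions of the 3′ segment of 18S. These offsets were looked at after the calls were known and are given as counts without a test. Where the base before the last one was C, 96 of 182 positions rose (52.7%) and 9 fell, and where the next base to be added was C, 93 of 182 rose (51.1%) and 11 fell. All positions of the segment had 36.9% rises and 11.9% falls, and over the gene the positions with C at these offsets had 33.9% and 31.3% rises. With A at the base before that, 119 of 233 rose (51.1%; 33.7% over the gene), and with U there 48 of 237 (20.3%; 16.5% over the gene). By the last pair of bases, CC had 25 rises and 1 fall among 37 positions, CU 33 and 3 among 58, and GA 17 and 21 among 73. Over the gene these pairs had 39.1%, 49.0% and 15.1% rises and 17.1%, 8.88% and 41% falls.

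The sequence around rises held more G and C over a short span, which is a description without a test. Windows of neighbouring rises share bases, and the shares over the gene were not computed. The 10 bases upstream of the last one held 52.1% G and C at rises, 46.6% at falls and 47.6% at all 900 positions, and the 10 bases downstream 51.0%, 42.0% and 47.2%. Further upstream, at bases 30 to 11 before the last one, the shares were 46.8%, 45.7% and 47.3%. Neighbouring positions shared their change: the correlation of the log2 change between positions, as a description over 892 to 897 pairs that share libraries and bases, was 0.51 for adjacent positions, 0.40, 0.29 and 0.20 at distances of 2, 3 and 4, and 0.08 and 0.02 at 5 and 6.

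The letters of the ligated linker after its variable bases (CUCCA) follow 1 position of the 3′ segment, 2392, and 5 of the gene at the same spacing. Position 2392 had 36.8, 47.8 and 47.7 rpm in WT and 37.3, 41 and 52.1 rpm in *spt4△*, and was not called (limma adjusted p = 0.944).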
